A study of Homo sapiens with 12 samples.

Results

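The stathmins and the neuronal cytoskeleton genes described here were STMN2, STMN3, STMN4, TUBB3, DCX, MAP2, MAPT, NEFL, NEFM and INA. They were chosen by name, as the array probes whose platform gene symbol is one of these 10. Of the 10 genes, 9 had a named probe, out of 18665 genes named on the array, and STMN3 was not analysed here. The 9 genes had 17 probes, of which 11, covering all 9 genes, were kept because at least 4 of the 12 arrays read them with a detection p-value under 0.01. The other 6 probes, 1 of DCX, 2 of MAP2 and 3 of MAPT, were detected on no array, with signals of 60.3 to 124 and detection p-values of 0.058 to 0.992.

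Transcript levels were measured on 12 Illumina bead arrays in 3 groups of 4: SNUhES3, an established line of human embryonic stem cells (ESCs), in the undifferentiated state, and embryoid bodies (EBs) of the same line after 1 or 2 weeks. The ESCs were grown on mitotically arrested mouse STO feeders in medium with basic FGF, and the EBs were floating spheres of detached ESC colonies in that medium lacking basic FGF. All results therefore come from 1 cell line, and an EB holds a mixture of cell types. Whether a group's 4 arrays stand for 4 cultures is not in the labels, so p-values measure the spread between arrays, which may be technical.

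Microtubules are hollow polymers of alpha- and beta-tubulin that grow and shrink at their ends. Stathmins bind free tubulin and destabilise microtubules, and STMN2, STMN3 and STMN4 are the members found mainly in neurons, where STMN2 acts in growing axons. DCX, MAP2 and MAPT bind the microtubule wall and stabilise it, and NEFL, NEFM and INA are subunits of the neurofilaments that fill the axon. TUBB3 and DCX are widely used as markers of young neurons.

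Levels below are log2 values after background correction and quantile normalisation, and differences are log2 EB minus ESC unless stated. A probe is said to have risen or fallen, or is counted as called, when limma's moderated test gave an adjusted p under 0.05 and the log2 difference was at least 1. Mean signals per array lay between 718 and 1092 and between 14045 and 15905 probes were detected per array. The lowest mean signal and the fewest detected probes were those of array 2 of the 2-week EBs. Arrays fell into the pairs 1 with 2 and 3 with 4: in ESCs the correlations across kept probes were 0.997 and 0.998 within these pairs and 0.983 between them, and in 1-week EBs 0.998 within and 0.991 to 0.992 between. In 2-week EBs they were 0.992 for arrays 1 and 2, 0.998 for arrays 3 and 4 and 0.990 to 0.994 between the pairs. Arrays of the same pair had a consensus correlation of 0.57 about their group means. The main fit takes the 4 arrays of a group as independent, so its p-values can be too small and its intervals too narrow. What separates the pairs is not given in the labels, so the members' differences from ESCs are also given for each pair alone. POU5F1 and NANOG, transcription factors of pluripotent cells, were measured on every ESC array at means of 14.11 and 10.88.

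Both neuronal stathmins with a named probe rose during EB culture. STMN2 rose about 3.4-fold at 1 week and 9- to 10-fold at 2 weeks, and STMN4, undetected in ESCs, was measured on all 4 arrays at 2 weeks. Among the other genes, DCX and NEFM were called at 2 weeks and none of the 11 kept probes was called lower in any comparison of all 4 arrays per group. On arrays 1 and 2 alone, MAPT was called lower at 1 week and NEFL at 2 weeks. The EB values in these calls were undetected on arrays 1 and 2 for MAPT and on array 2 for NEFL.

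At 1 week 3 of the 11 kept probes were called, all higher, from 2 of the 9 genes, beside 8.85% of all 15921 kept probes called in either direction, 5.48% called higher and 3.37% lower. At 2 weeks 5 of the 11 were called, all higher, from 4 of the 9 genes, beside 14.1% of all kept probes in either direction, 7.52% higher and 6.54% lower. Between 1 and 2 weeks 3 were called, all higher, from 2 genes, beside 1.28% of all kept probes in either direction, 0.791% higher and 0.490% lower. The median difference over the 11 probes was -0.31 at 1 week, 0.14 at 2 weeks and 0.45 between 1 and 2 weeks, against -0.00, -0.03 and -0.01 over all kept probes. In these mixed RNA samples, fewer cells of a type and less RNA per cell cannot be told apart. The plot of group differences sets the called and uncalled probes side by side.

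**Figure D1:**
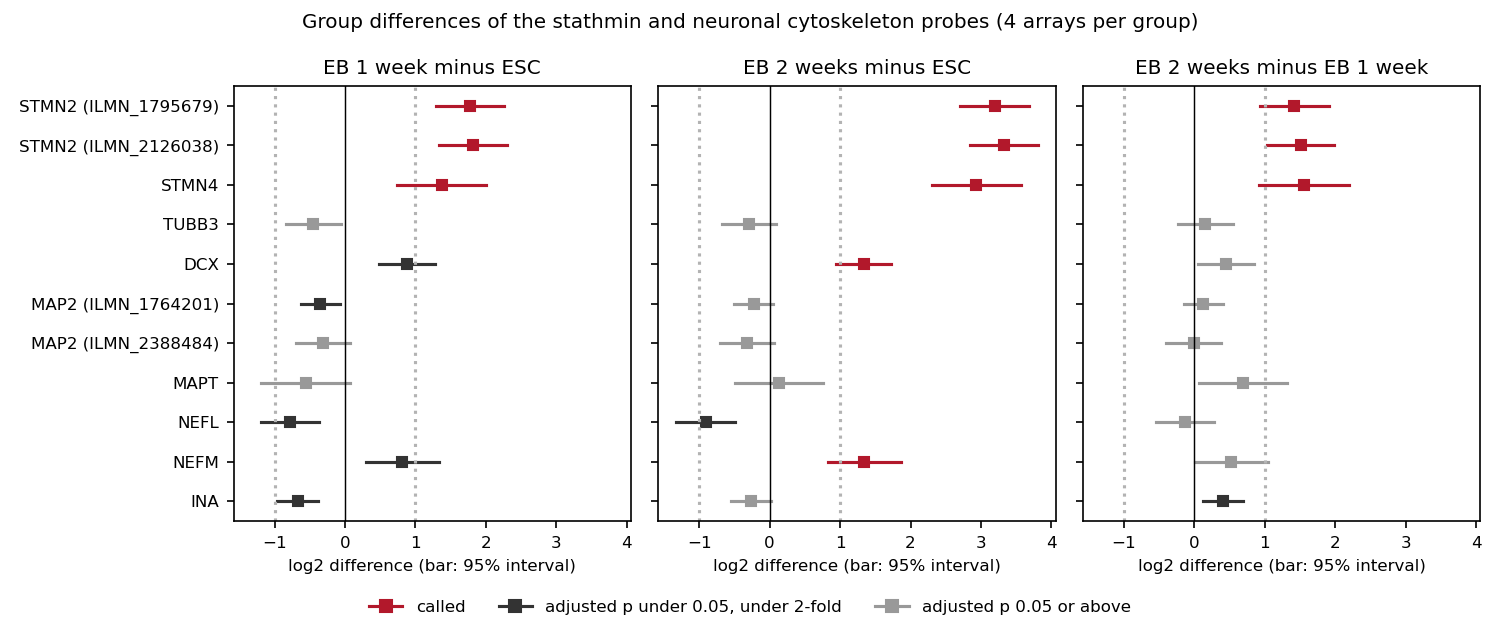
Log2 difference of each of the 11 kept probes in the 3 group comparisons (4 arrays per group), with bars for the 95% interval from limma; dotted lines mark a log2 difference of 1 in either direction. Both STMN2 probes and STMN4 lie above 1 in every panel, DCX and NEFM pass 1 only at 2 weeks against ESCs, and the remaining probes lie between -0.91 and 0.69.

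STMN2 was measured by 2 probes, and both were detected on all 12 arrays. In the first probe, ILMN_1795679, deposited signals were 575, 517, 775 and 745 on ESC arrays 1 to 4, 2418, 2457, 2877 and 2564 at 1 week, and 6128, 3349, 8039 and 6187 at 2 weeks. The corresponding log2 levels were 8.98, 8.89, 9.75 and 9.74 in ESCs, 10.85, 11.04, 11.29 and 11.28 at 1 week and 12.41, 12.06, 12.96 and 12.70 at 2 weeks. The 3 groups did not overlap, and arrays 3 and 4 stood above arrays 1 and 2 in each group. The mean rose from 9.34 ± 0.47 to 11.11 ± 0.21 and 12.53 ± 0.38 (SD, n = 4). Against ESCs the difference was 1.77 (SE 0.23, 3.42-fold, limma adjusted p = 2.79e-05) at 1 week and 3.19 (SE 0.23, 9.15-fold, adjusted p = 5.47e-08) at 2 weeks. The step from 1 to 2 weeks was 1.42 (SE 0.23, adjusted p = 0.000667).

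The second STMN2 probe, ILMN_2126038, read 8.03, 8.13, 8.45 and 8.66 on the ESC arrays, 9.88, 9.81, 10.41 and 10.43 at 1 week and 11.26, 11.26, 12.06 and 11.99 at 2 weeks. It showed the same order of the groups with no overlap. Its differences from ESCs were 1.82 (SE 0.22, limma adjusted p = 1.78e-05) and 3.33 (SE 0.22, 10.03-fold, adjusted p = 2.83e-08), and the second week added 1.51 (adjusted p = 0.000372). From arrays 1 and 2 alone the differences of the 2 probes were 2.01 and 1.76 at 1 week and 3.30 and 3.18 at 2 weeks, and from arrays 3 and 4 alone 1.54 and 1.87, and 3.08 and 3.47. When each array pair was averaged into 1 value, the step from 1 to 2 weeks was no longer called for either probe (limma adjusted p = 0.0741 and 0.0658). In the deposited series matrix that step was 1.11 for ILMN_2126038 (adjusted p = 0.16).

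STMN4, a tubulin-binding stathmin of neural tissue, was near background in ESCs: its signals there were 90.2, 95.7, 91.0 and 82.2, with detection p-values of 0.269 to 0.555. Signals were 164, 155, 210 and 191 at 1 week and 292, 214, 501 and 439 at 2 weeks. No ESC array, arrays 3 and 4 at 1 week and all 4 arrays at 2 weeks passed detection, and the groups did not overlap. The mean level was 5.12 in ESCs, 6.50 ± 0.50 at 1 week and 8.05 ± 0.67 at 2 weeks (SD, n = 4). The 2-week level was at least 1.95-fold above ESCs. The ESC value taken was the higher of the probe's own level and the lowest level among detected probes on each array. The fitted difference at 2 weeks, 2.93 (limma adjusted p = 1.72e-06), rests on undetected ESC values and is no bound. It was 2.39 from arrays 1 and 2 and 3.47 from arrays 3 and 4. The probe was kept through EB arrays alone, and it was among the called probes in every comparison. The 1-week level gave no bound above 1, although the fit called it (fitted difference 1.37, SE 0.29, limma adjusted p = 0.00174). That 1-week call was lost on arrays 1 and 2 alone (0.98, against 1.77 on arrays 3 and 4), without background correction (0.79), in the series matrix (0.83) and with averaged pairs (adjusted p = 0.058). Between 1 and 2 weeks the difference was 1.56 (SE 0.29, adjusted p = 0.0021), which was lost without background correction (0.99) and with averaged pairs (adjusted p = 0.114).

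**Figure D2:**
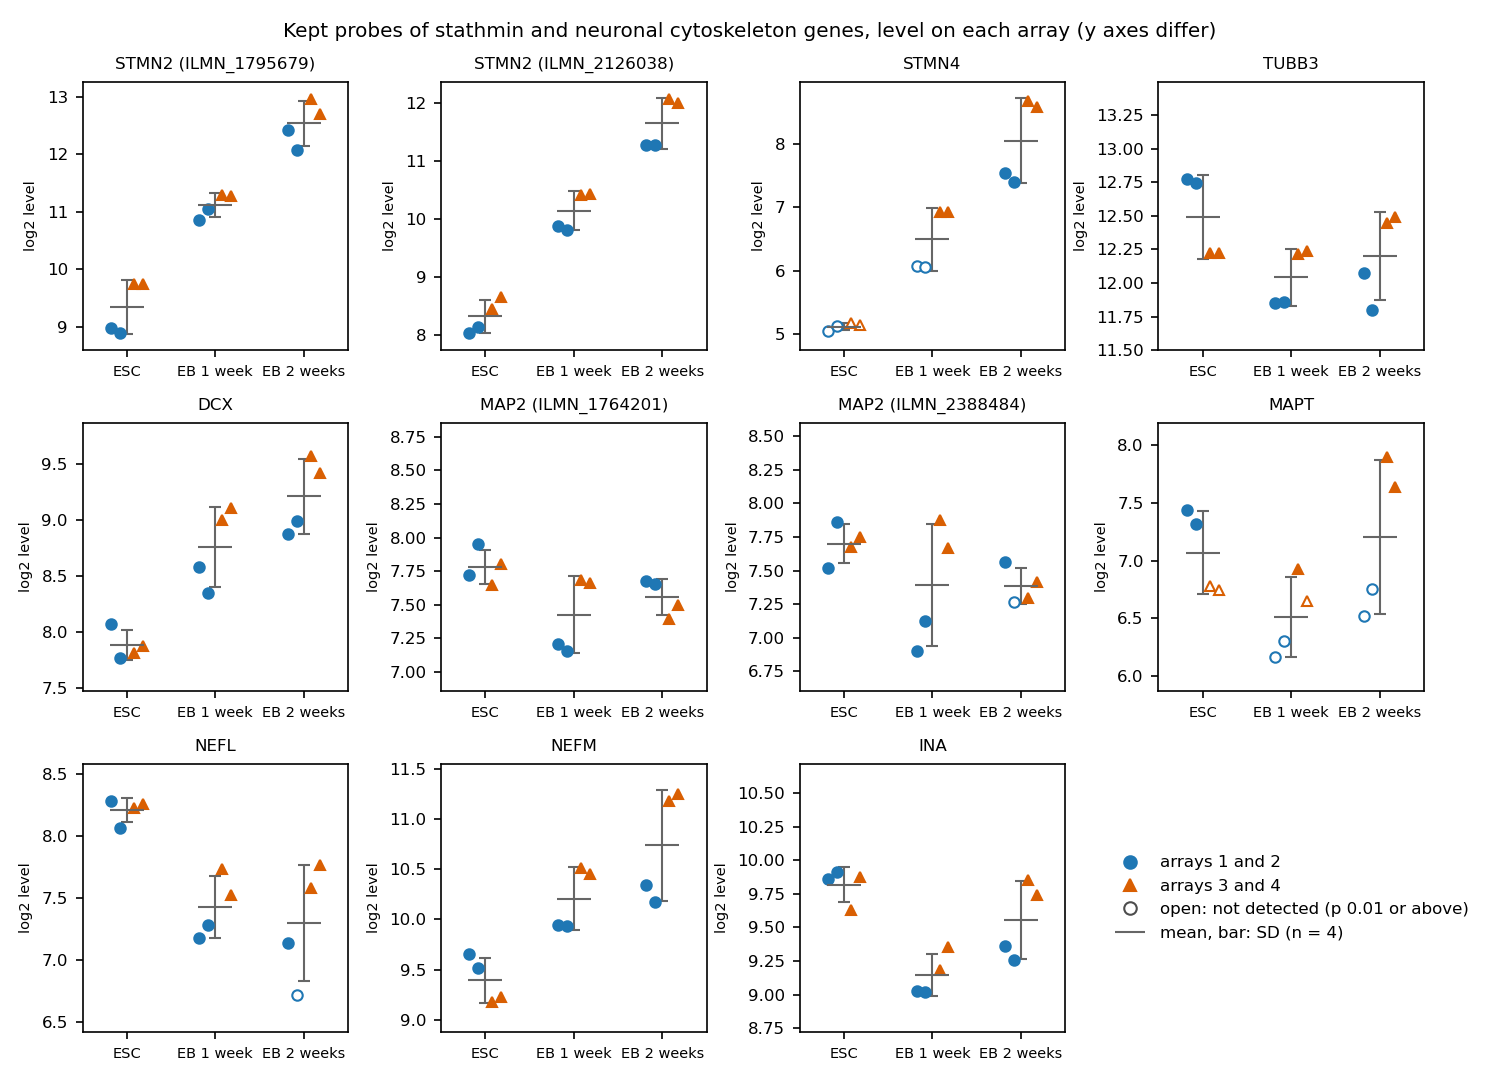
Log2 level of each kept probe on each of the 12 arrays, in ESCs and in EBs at 1 and 2 weeks; circles are arrays 1 and 2, triangles arrays 3 and 4, open symbols are not detected, and the line and bar give the mean and SD of 4 arrays. STMN2 and STMN4 step up without overlap from group to group, TUBB3 overlaps in every group, and at 1 week each probe reads higher on arrays 3 and 4 than on arrays 1 and 2.

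TUBB3, the class III beta-tubulin, was detected on every array, ESCs included, and was not called in any comparison. Signals were 7790, 7077, 4132 and 4070 on the ESC arrays, 4781, 4241, 5311 and 4846 at 1 week and 4800, 2813, 5645 and 5369 at 2 weeks. In log2 levels this was 12.77, 12.75, 12.22 and 12.22 in ESCs, 11.86, 11.86, 12.22 and 12.24 at 1 week and 12.08, 11.80, 12.44 and 12.49 at 2 weeks. The groups overlapped, and the array pairs ran in opposite orders, since arrays 1 and 2 were the higher pair in ESCs and the lower pair in both EB groups. The differences from ESCs were -0.45 (95% interval -0.84 to -0.06, limma adjusted p = 0.0531) and -0.29 (-0.68 to 0.10, adjusted p = 0.18). From arrays 1 and 2 alone they were -0.90 and -0.82, and from arrays 3 and 4 alone 0.0043 and 0.25. The 2-week interval, which takes a group's arrays as independent, lies below a 2-fold rise on this scale.

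Among the proteins that bind the microtubule wall, DCX, which is required in migrating young neurons, rose at 2 weeks. Its detected probe, ILMN_2361096, read 8.07, 7.77, 7.81 and 7.87 in ESCs, 8.58, 8.35, 9.01 and 9.11 at 1 week, and 8.87, 9.00, 9.58 and 9.42 at 2 weeks. Both EB groups lay above all ESC arrays and overlapped each other. The difference from ESCs was 0.88 (SE 0.18, limma adjusted p = 0.00144) at 1 week, which passed the p threshold but not the 2-fold minimum, and 1.34 (SE 0.18, 2.52-fold, adjusted p = 3.3e-05) at 2 weeks. The 1-week difference was 0.54 from arrays 1 and 2 and 1.22 from arrays 3 and 4, and it was called, at 1.08, when arrays were scaled to a common median in place of quantiles, and at 1.02 without 1-week array 2. The 2-week difference was 1.01 and 1.66 from the same pairs. The step between the weeks, 0.45, was not called (adjusted p = 0.0929).

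MAP2, a protein of dendrites, was read by 2 detected probes close to the detection limit. ILMN_1764201 lay between 7.65 and 7.95 in ESCs, between 7.16 and 7.68 at 1 week and between 7.40 and 7.68 at 2 weeks. ILMN_2388484 lay between 7.52 and 7.87, between 6.90 and 7.87 and between 7.27 and 7.57, and 1 of its 2-week arrays did not pass detection. The groups overlapped for both probes. Differences from ESCs were -0.35 (limma adjusted p = 0.036) and -0.31 (adjusted p = 0.171) at 1 week and -0.22 and -0.32 (adjusted p = 0.151 and 0.144) at 2 weeks. At 1 week they were -0.65 and -0.68 from arrays 1 and 2 and -0.052 and 0.062 from arrays 3 and 4. At 2 weeks they were -0.17 and -0.28 from arrays 1 and 2 and -0.28 and -0.36 from arrays 3 and 4.

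MAPT, the axonal protein tau, was read by 1 of its 4 probes, ILMN_2310814, which was detected on 5 of 12 arrays. Levels were 7.44, 7.31, 6.77 and 6.75 in ESCs, 6.16, 6.30, 6.93 and 6.65 at 1 week, and 6.52, 6.76, 7.90 and 7.64 at 2 weeks. The groups overlapped, and the detected arrays were 1 and 2 in ESCs, 3 at 1 week and 3 and 4 at 2 weeks. The differences from ESCs, -0.56 and 0.14, did not pass (limma adjusted p = 0.13 and 0.704). From arrays 1 and 2 alone they were -1.15 and -0.74, and from arrays 3 and 4 alone 0.029 and 1.01. Within the pairs MAPT was thus called in opposite directions, lower at 1 week on arrays 1 and 2 (limma adjusted p = 0.000101) and higher at 2 weeks on arrays 3 and 4 (adjusted p = 3.72e-05). The first call rests on undetected 1-week values and the second on undetected ESC values. Their fitted differences are therefore no bounds.

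Of the 3 neurofilament subunits, NEFM was called higher at 2 weeks, and NEFL and INA were not called in any comparison. NEFM, the medium subunit, read 9.65, 9.51, 9.18 and 9.23 in ESCs, 9.94, 9.93, 10.51 and 10.45 at 1 week, and 10.34, 10.18, 11.18 and 11.25 at 2 weeks. All EB arrays were above all ESC arrays, and arrays 3 and 4 were the lower pair in ESCs and the higher pair in EBs. The difference was 0.82 (SE 0.24, limma adjusted p = 0.0124) at 1 week, under the 2-fold minimum, and 1.34 (SE 0.24, 2.54-fold, adjusted p = 0.000302) at 2 weeks, where NEFM was called. At 1 week the difference was 0.35 from arrays 1 and 2 alone and 1.28 from arrays 3 and 4, where it was called (adjusted p = 6.16e-07). The 2-week difference was 0.68 from arrays 1 and 2 alone, where it was not called, and 2.01 from arrays 3 and 4.

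NEFL, the light subunit that forms the filament core, read 8.28, 8.06, 8.23 and 8.26 in ESCs, 7.18, 7.28, 7.74 and 7.52 at 1 week, and 7.14, 6.72, 7.58 and 7.76 at 2 weeks. Every EB array was below every ESC array, and array 2 at 2 weeks did not pass detection. The differences, -0.78 (SE 0.19, limma adjusted p = 0.00465) and -0.91 (SE 0.19, adjusted p = 0.00119), passed the p threshold but not the 2-fold minimum. At 1 week the value was -0.94 from arrays 1 and 2 and -0.61 from arrays 3 and 4. At 2 weeks it was -1.24 from arrays 1 and 2, where it was called (limma adjusted p = 0.000176), and -0.57 from arrays 3 and 4. It was also called without 2-week array 3 (-1.002) or without 2-week array 4 (-1.06). Each of these calls includes the undetected value of 2-week array 2, so the fitted differences are no bounds.

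INA, alpha-internexin, which assembles into filaments of young neurons, read 9.86, 9.91, 9.63 and 9.88 in ESCs, 9.03, 9.02, 9.18 and 9.36 at 1 week and 9.36, 9.26, 9.85 and 9.74 at 2 weeks. The 1-week arrays were all below the ESC arrays, and the 2-week arrays overlapped them. The 1-week difference was -0.67 (SE 0.13, limma adjusted p = 0.000984) and the 2-week difference -0.26 (adjusted p = 0.101). From arrays 1 and 2 alone they were -0.86 and -0.58, and from arrays 3 and 4 alone -0.48 and 0.047. The second week added 0.41 (adjusted p = 0.0409), under the 2-fold minimum.

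Within arrays, the change of NEFM exceeded that of NEFL by 1.59 at 1 week and 2.25 at 2 weeks, with no overlap between groups of the per-array gap between the subunits. The excess was 1.30 and 1.89 from the array pairs 1 and 2 and 3 and 4 at 1 week, and 1.92 and 2.58 at 2 weeks. NEFM also exceeded INA by 1.49 and 1.61, again in both pairs (1.22 and 1.76 at 1 week, 1.25 and 1.96 at 2 weeks). These gaps were computed after the subunits' values were seen and carry no test, and they show unequal change, not which subunit changed.

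Counted by the adjusted p alone, at any size, 5 kept probes were higher and 3 lower at 1 week, beside 24.6% and 24.5% of all kept probes. At 2 weeks 5 were higher and 1 lower, beside 28.5% and 31.3%, and between the weeks 4 were higher and none lower, beside 10.4% and 12.3%. Groups did not overlap for 5 higher and 2 lower probes at 1 week (23.2% and 22.7% of all kept probes). They did not overlap for 5 and 1 at 2 weeks (25.5% and 27.7%), and for 3 and 0 between the weeks (13.6% and 16.4%).

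The split between the array pairs ran through nearly the whole set. At 1 week all 11 kept probes read higher on arrays 3 and 4 than on arrays 1 and 2 without overlap, beside 29.5% of all kept probes higher and 32.5% lower. The median gap was 0.54 over the 11 probes, against -0.01 over all kept probes, whose 5th and 95th percentiles were -0.36 and 0.40. At 2 weeks 9 of the 11 were higher on arrays 3 and 4 and 1 was lower, beside 22.1% and 23.8% of all kept probes, with a median gap of 0.59. In ESCs 3 were higher and 3 lower, beside 28.8% and 39.7%, and 5 overlapped. In each comparison 3 of the 11 probes had differences of opposite sign in the 2 pairs.

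Other neuronal genes also read higher on arrays 3 and 4 at 2 weeks. Averaged over the kept genes, the neuronal transcription factors stood at 8.99 on arrays 1 and 2 and 9.48 on arrays 3 and 4, and other neuron markers at 8.49 and 8.96. Neural progenitor markers stood at 10.71 and 10.69 and mesenchyme markers at 12.11 and 12.03. Glial markers stood at 8.47 and 8.70, cardiomyocyte markers at 11.08 and 11.28, and endoderm and liver markers at 10.55 and 10.32. Higher readings on arrays 3 and 4 were thus not limited to neuronal lists. At 1 week the same pairs read 8.490 and 8.596 for the transcription factors, 8.37 and 8.49 for the neuron markers, 9.86 and 10.16 for progenitor markers and 11.71 and 11.33 for mesenchyme markers. The part of cell type composition in the differences was not tested.

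**Figure D3:**
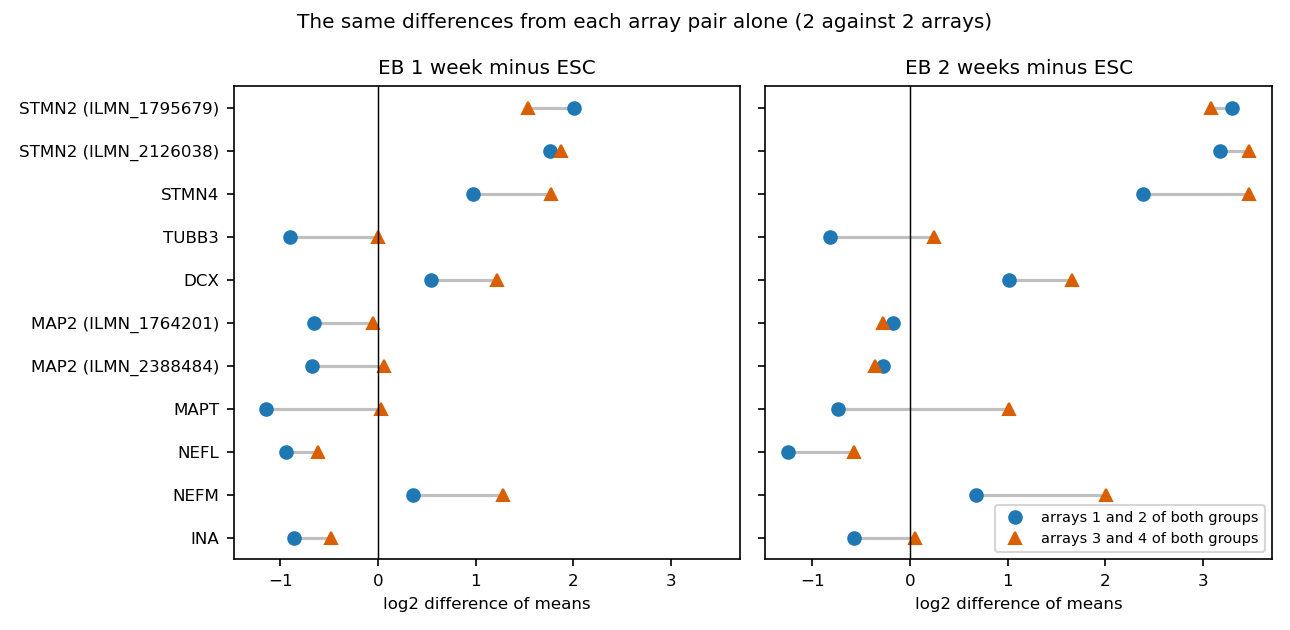
Log2 differences of the 11 kept probes from ESCs, computed from arrays 1 and 2 of both groups (circles) and from arrays 3 and 4 of both groups (triangles), each 2 against 2 arrays. STMN2, STMN4, DCX and NEFM lie above 0 in both pairs and NEFL below 0 in both, whereas TUBB3 and MAPT in both weeks, MAP2 ILMN_2388484 at 1 week and INA at 2 weeks lie on opposite sides of 0.

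Among the members, RefSeq promoter windows were taken for DCX, TUBB3, INA and MAP2 only. STMN2, STMN4, NEFL and NEFM were left out, and MAPT and STMN3 had no entry among the promoter sequences used. Promoter sequences are shown for DCX, which was called at 2 weeks, and for TUBB3 and INA, which were not. The called genes STMN2, STMN4 and NEFM are absent, so these windows do not compare called with uncalled genes. Each is 250 bases before to 50 after an annotated start on GRCh38.p14, written 5′ to 3′ on the gene's strand, and capitals mark the searched motif on either strand, CAGATG, the E-box preferred by NEUROG and NEUROD factors. DCX is shown at its second of 3 windows (chrX:111412048-111412347, minus strand, 45% GC), TUBB3 at its second of 2 (chr16:89923092-89923391, plus strand, 79% GC) and INA at its only window (chr10:103276888-103277187, plus strand, 71.3% GC).
DCX: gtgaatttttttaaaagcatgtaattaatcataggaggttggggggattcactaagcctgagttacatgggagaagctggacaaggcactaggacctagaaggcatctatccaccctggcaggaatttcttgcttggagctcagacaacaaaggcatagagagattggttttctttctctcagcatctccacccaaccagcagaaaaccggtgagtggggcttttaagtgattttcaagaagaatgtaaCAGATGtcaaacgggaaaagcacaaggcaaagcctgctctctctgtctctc
TUBB3: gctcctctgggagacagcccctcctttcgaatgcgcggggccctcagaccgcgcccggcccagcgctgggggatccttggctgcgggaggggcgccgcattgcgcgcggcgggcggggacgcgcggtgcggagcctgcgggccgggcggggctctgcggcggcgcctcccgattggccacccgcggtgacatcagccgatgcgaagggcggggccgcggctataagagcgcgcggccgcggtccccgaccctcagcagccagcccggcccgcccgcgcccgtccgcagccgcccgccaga
INA: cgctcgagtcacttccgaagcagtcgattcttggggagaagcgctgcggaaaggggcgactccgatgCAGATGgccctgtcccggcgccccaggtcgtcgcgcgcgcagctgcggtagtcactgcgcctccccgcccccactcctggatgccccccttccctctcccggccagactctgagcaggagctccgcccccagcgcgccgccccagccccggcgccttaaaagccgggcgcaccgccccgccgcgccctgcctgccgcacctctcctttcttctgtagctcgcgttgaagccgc

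The DCX and INA windows each held 1 CAGATG, and the TUBB3 window held none. Of 35114 RefSeq promoters of this length, 14.7% held it. The other DCX and TUBB3 windows did not hold it, so the DCX window shown is the only DCX window with the motif. Of 3 MAP2 windows, 1 held CAGATG. The median GC content over all promoters was 58.7%, with quartiles of 47% and 68%.

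Other genes of the cytoskeleton are given from lists of related genes, with each gene read by its brightest kept probe and counts set beside the shares of all kept probes above. The list of other microtubule proteins also held GAP43, BASP1 and MARCKS, which are not themselves microtubule proteins. Among its 19 kept genes, 1 was higher and 3 were lower at 2 weeks, with a median difference of 0.20. MAP1A, a microtubule-binding protein of neurites, rose by 1.35 (SE 0.10, limma adjusted p = 7.85e-08). GAP43, a growth cone protein, fell by 1.27 (SE 0.22, adjusted p = 0.000276), MAP4, a microtubule-binding protein of many cell types, fell by 1.08 (-0.67 from arrays 1 and 2, -1.50 from arrays 3 and 4), and MAP7, named after its values were seen, fell by 1.001. STMN1, the stathmin of dividing cells, differed by 0.43 (adjusted p = 0.000587), under the 2-fold minimum.

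Among 12 kept genes of other tubulins none was higher and 2 were lower at 2 weeks: TUBA4A fell by 1.44 (SE 0.10, limma adjusted p = 6.34e-08) and TUBB4A by 1.34 (SE 0.10, adjusted p = 1.39e-07). Tubulin genes are close copies of each other, and shared signal between their probes was not tested. Among 12 kept genes of neuronal motors and motor regulators 2 were higher and none lower. DYNC1I1, a dynein intermediate chain undetected in ESCs, was at least 2.86-fold higher. Its fitted difference, 3.17 (limma adjusted p = 1.12e-11), rests on undetected ESC values and is no bound. PAFAH1B1, a dynein regulator, rose by 1.02.

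Among 12 kept genes of other intermediate filaments 4 were higher and 1 was lower at 2 weeks. NEFH, the heavy neurofilament subunit, fell by 1.26 (SE 0.10, limma adjusted p = 1.33e-07), from 9.01 to 7.75. The keratins KRT19 and KRT8, filament proteins of epithelia, rose by 1.762 and 1.196. KRT18 and PRPH, named after their values were seen, each rose by 1.04. Other probes of KRT18 gave -0.71 to -0.19, and PRPH, the peripheral neuron filament peripherin, gave 0.42 from arrays 1 and 2 and 1.66 from arrays 3 and 4.

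The list of neuronal transcription factors held 28 genes, of which 25 had a named probe and 14 were kept. Of the 14, 8 were higher at 1 week and 11 at 2 weeks, and none was lower. LHX2, a factor of the forebrain and eye field, rose by 4.25 at 2 weeks (SE 0.12, limma adjusted p = 4.13e-12), ISL1, a factor of motor and sensory neurons and of heart progenitors, rose by 3.45, and EBF1 was at least 3.66-fold higher. Of the 14 genes, 6 were undetected in ESCs and were kept through the EB arrays, and of the other 8, 5 were higher. The median difference was 1.68, or 1.03 with those genes at their bound. NEUROG1, NEUROG3, NEUROD2 and NEUROD4, which drive neuronal or endocrine differentiation, were detected on no array, and NEUROG2 on 2 of 12. REST, a repressor of neuronal genes, differed by -0.25 (adjusted p = 0.0305), under the 2-fold minimum.

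Among 19 kept genes of other neuron markers, 8 were higher and 2 lower at 2 weeks, with a median difference of 0.31. The glutamate transporter SLC17A6 was at least 1.95-fold higher and the adhesion protein CNTN2 at least 3.41-fold, both undetected in ESCs, and the adhesion protein CNTN1 fell by 2.10 (SE 0.15, limma adjusted p = 5.46e-08). The fitted differences of SLC17A6 and CNTN2, which are no bounds, were 2.34 and 1.96 from arrays 1 and 2 and 3.57 and 3.88 from arrays 3 and 4. Genes of inhibitory transmission were split. GAD1, which makes GABA and was named after its values were seen, was undetected in ESCs. It was at least 2.09-fold higher at 1 week and 2.80-fold at 2 weeks. Its fitted differences, 1.34 and 1.76 (limma adjusted p = 4.74e-05 and 2.28e-06), rest on undetected ESC values and are no bounds. GAD2 and SLC32A1 were detected on no array, and TH and CHAT, which make dopamine and acetylcholine, on at most 2 and 3 of 12. Of the 19, 6 were undetected in ESCs, and of the other 13, 2 were higher and 2 lower.

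**Figure D4:**
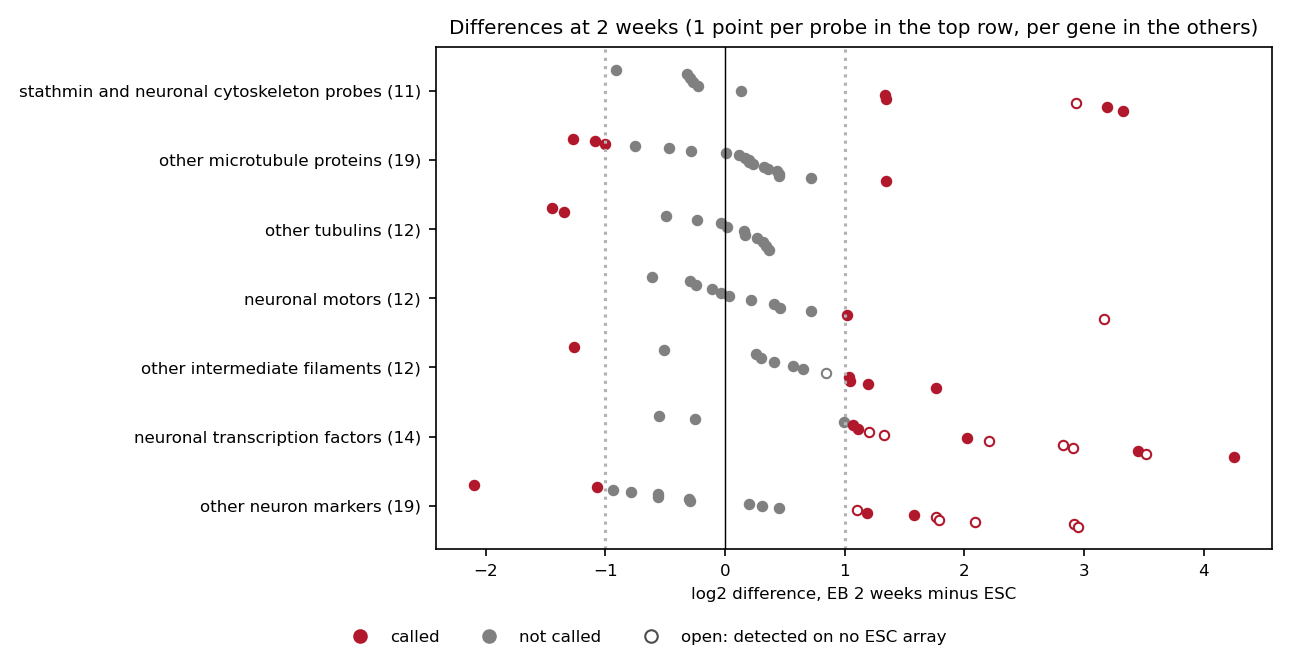
Log2 difference between 2-week EBs and ESCs, with 1 point per kept probe in the top row and 1 point per gene (its brightest kept probe) in the rows of related gene lists; numbers of points are in brackets, and open points were detected on no ESC array, so their position is a fitted value and no bound. Of 14 kept neuronal transcription factors, from a list of 28, 11 were called higher, and 6 of the 14 were detected on no ESC array. Of 12 other tubulins 2 were called lower and none higher.

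Markers of other cell types rose on the same arrays. At 2 weeks, 9 of 11 kept mesenchyme markers, 5 of 7 cardiomyocyte markers and all 10 kept endoderm and liver markers were higher, as were 7 of 14 neural progenitor markers and 1 of 3 kept glial markers. Many of these genes were undetected in ESCs and were kept through the EB arrays: 5 of the mesenchyme, 3 of the cardiomyocyte, 9 of the endoderm and liver, 5 of the progenitor and 1 of the glial markers. Of those detected in ESCs, 4 of 6, 2 of 4, 1 of 1, 2 of 9 and 1 of 2 were higher. By their brightest probes, the mesenchyme matrix genes COL3A1, DCN and LUM, undetected in ESCs, were at least 235-, 127- and 132-fold higher. Other kept probes gave smaller fitted log2 differences: 2.74 to 5.53 for DCN, against 8.88, and 6.79 for LUM, against 8.65. HAND1, a factor of heart and extraembryonic mesoderm, rose by 6.98. The muscle genes SLN and MYL4 were at least 52.0- and 16.4-fold higher by their brightest probes. Another MYL4 probe gave a fitted difference of 2.38, against 5.99. FGB, TTR and APOA2, which encode plasma proteins made by the liver, were at least 48.5-, 25.03- and 23.1-fold higher by their brightest probes. Another FGB probe gave a fitted difference of 5.31, against 7.36. Of 11 kept pluripotent cell markers none was higher and 3 were lower at 2 weeks: DPPA2 fell by 2.37, PRDM14 fell by 1.76 and UTF1 fell by 1.49. Summed linear levels of the mesenchyme list ranged from 5517 to 7490 in ESCs and from 99284 to 115284 at 2 weeks, and those of the neuron markers from 16200 to 19312 and from 15981 to 20326. Such sums weight the brightest genes most. UCHL1, named after its values were seen, was the brightest kept neuron marker, at 13.34 in ESCs and 13.05 at 2 weeks. Among the progenitor markers, LHX2 rose as above, and SOX1 was detected on no array. PAX6 was at least 4.01-fold and POU3F2 at least 4.39-fold higher by their brightest probes, both undetected in ESCs. Another probe of each gave smaller fitted differences, 1.49 against 3.71 for PAX6 and 2.69 against 3.47 for POU3F2. Of the glial markers, GFAP, S100B, AQP4 and OLIG1 were detected on no array, OLIG2 on 1, and SLC1A3, a glutamate transporter of astrocytes and progenitors, rose by 2.04. The part of these cells in the differences was not tested.

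For each of the genes called in at least 1 comparison, the 3 other named genes with the most similar profile were found by the root mean square distance between profiles centred on their mean over the 12 arrays, among 13575 kept probes. For STMN2 they were BACE1 (distance 0.33), EBF1 (0.36) and GPER1 (0.37), each detected on the 8 EB arrays and on no ESC array. For STMN4 they were POU4F2 (0.27), SLC17A6 (0.30) and EBF3 (0.36), detected on 5, 7 and 8 of the 12 arrays and on no ESC array. For DCX they were PREX1 (0.16), SMAD7 (0.20) and TMEM169 (0.20), and for NEFM SYT4 (0.23), INSM1 (0.23) and SRGAP3 (0.25). PREX1 was detected on 4 arrays and on no ESC array. Where a gene was undetected, the likeness rests partly on background values. The 12 arrays share groups and array pairs, so the distances are descriptions with no test.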

How the data were processed

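The authors' deposited table without normalisation held, per the file headers, an intensity with its detection p-value for each probe on each array, and all per-sample columns were used. The deposited series matrix held log2 values with processing not given in the sources used here, and served as an alternative only. Each of its columns had a median of 6.68, and its direction follows from how each column correlated with that array's log2 signal, at 0.938 for array 2 of the 2-week EBs and 0.998 to 0.999 on the others.

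Signals were corrected and normalised with neqc of limma 3.58.1 in R 4.3.3 (background from the detection p-values, offset 16, quantile normalisation, log2), which removes any shift common to most transcripts and shrinks differences near background. Kept probes had detection p-values under 0.01 on 4 or more of 12 arrays (15921 of 48803). Each probe was fitted with lmFit and eBayes over all 12 arrays, two-sided, with Benjamini-Hochberg adjustment over all kept probes, after a test of the code on simulated data. Array number limits the precision. Gene symbols came from the platform annotation: 27578 probes had 1 symbol, 13 several and 21212 none here. Members and gene lists were chosen with earlier results of these data known. Text names every member, the 3 called genes of each list with the largest 2-week difference, and the 3 nearest profiles; others are marked as named after their values were seen. Deviations from the group means correlated at 0.14 to 0.25 between same-numbered arrays of ESCs and 1-week EBs. Differently numbered arrays of the same pair gave 0.13 to 0.26, and arrays across the pairs -0.26 to -0.073. The likeness of these 2 groups thus followed the array pair, and replicate numbers were not shown to be paired. Same-numbered arrays gave -0.049 to 0.023 for ESCs and 2-week EBs and -0.095 to 0.15 for the EB groups. Alternatives covered background correction, normalisation, filters, array pairs, array weights, a replicate block and leaving out each array.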

Additional observations from a re-analysis of the deposited data

Results flagged for a closer look

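Of 33 groups of 4 arrays tested over the kept probes, 1 held an array standing apart by Dixon's criterion, which chance gives in about 1 of 20 groups. INA on ESC array 3 read 9.63, against 9.86 to 9.91 on the other ESC arrays, a gap of 0.834 of the range of the group.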

How the results depend on the processing

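Over all kept probes, 1409 were called at 1 week, 2240 at 2 weeks and 204 between the weeks, and leaving out 1 array at a time gave 1351 to 1534, 2153 to 2372 and 201 to 221. For the kept member probes the counts were 3, 5 and 3, and leaving out 1 array gave 3 to 4, 5 to 6 and 3 to 3. Without background correction the counts over all probes fell to 832, 1402 and 89, and in the series matrix to 885 at 1 week and 107 between the weeks. Member counts moved to 5 at 1 week on arrays 3 and 4 alone, and to 0 between the weeks when each array pair was averaged, which leaves 2 values per group. Scaling to a common median moved the median of all probes to 0.13 at 1 week and -0.12 between the weeks, and the split of higher to lower calls from 873 and 536 to 1102 and 370 at 1 week and from 126 and 78 to 98 and 121 between the weeks. With the replicate number as a block the counts were 1409, 2240 and 204, and in a fit of the 8 arrays compared, chosen after seeing the data, 1409, 2237 and 202. The block left the member counts at 3, 5 and 3 in both fits and changed no member's call. Each replicate number occurs once per group, so this block can change the error of a log2 difference but not the difference itself. On arrays 1 and 2 alone 1 of the 3 member calls at 1 week (MAPT) and 1 of the 5 at 2 weeks (NEFL) were lower, and NEFL was also the 1 lower of 6 calls without 2-week array 3 or 4. No other alternative gave a lower call. Both STMN2 probes and STMN4 at 2 weeks against ESCs, and DCX at 2 weeks, kept their calls under every alternative run for them.

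Signs changed for some differences that were not called. On arrays 3 and 4 alone these were TUBB3 at 1 and 2 weeks (0.0043 and 0.25), MAP2 ILMN_2388484 and MAPT at 1 week (0.062 and 0.029), INA at 2 weeks (0.047), and MAP2 ILMN_1764201 and NEFL between the weeks (-0.22 and 0.040). On arrays 1 and 2 alone they were MAPT at 2 weeks (-0.74) and MAP2 ILMN_2388484 between the weeks (0.40). In the series matrix they were MAPT at 2 weeks (-0.078) and MAP2 ILMN_2388484 between the weeks (0.095), and with array weights, whose estimate stopped before its tolerance, TUBB3 at 2 weeks (0.0038) and NEFL between the weeks (0.075). Leaving out 1 array gave MAPT at 2 weeks -0.095 to 0.36, MAP2 ILMN_2388484 between the weeks -0.17 to 0.15 and NEFL between the weeks -0.29 to 0.062. The cause was not tested. Signals near background limit the values of STMN4, MAP2, MAPT and, at 2 weeks, NEFL.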
